A study of Homo sapiens with 12 samples.

Results

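The transforming growth factor beta (TGF-beta) and bone morphogenetic protein (BMP) pathway was followed through 50 genes, chosen by name as its main ligands, receptors, SMADs, antagonists and direct targets, out of the 58288 gene IDs counted. Of the 50, 43 had enough counts to be tested, among 13959 genes tested in all. These members and the further list below were chosen with earlier results of these data known. Shares of them called, set beside those of all genes, may reflect this choice, which was not tested. HK2 is an immortalized line of human kidney proximal tubule cells, and its cells carried a hairpin RNA directed against FLCN (shRNA FLCN, the knockdown) or a control hairpin (shControl, the nontarget control). FLCN is the tumor suppressor gene lost in Birt-Hogg-Dubé syndrome. Both kinds of cell were sequenced in 3 biological replicates after fewer than 30 (short-term) or after 120 passages (long-term), as the labels give them, which gave 4 groups and 12 libraries, all grown in the same medium with serum. The knockdown cells were grown from selected clones and the labels do not name the clone of a library, so the effects of the hairpin and of the clone that carries it cannot be told apart, and p-values measure only the spread between these libraries.

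TGF-beta family ligands are secreted dimers that bring type II and type I receptor kinases together at the cell surface. The type I receptors then phosphorylate SMAD2 and SMAD3 (for TGF-beta and activins) or SMAD1, SMAD5 and SMAD9 (for BMPs), which enter the nucleus with SMAD4 and act on target genes such as the ID genes and the inhibitory SMAD6 and SMAD7. TGF-beta itself is stored in the matrix in a latent form, bound to latent TGF-beta binding proteins (LTBPs), and in the kidney tubule the pathway is best known for its part in fibrosis and in the loss of epithelial characters.

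The promoter sequences of 5 members are shown because they belong to genes whose mRNA responded differently below: TGFB1 and TGFBI, which rose after long-term knockdown, BMP4, which fell, BAMBI, which rose after short-term knockdown, and ID1, which passed no test. They are the stretches before the RefSeq start sites on GRCh38.p14 that hold no exon of the GENCODE 29 annotation, written 5′ to 3′ on the strand of the gene. They come from chr19:41353923-41354168 (minus strand), chr5:136028738-136028894 (plus), chr14:53955051-53955300 (minus), chr10:28677271-28677341 (plus) and chr20:31605039-31605282 (plus). Capitals mark the short SMAD motif CAGAC on either strand (GTCTG when read on the other strand) and the GC-rich motif GGCGCC, which reads the same on both strands. A GGCGCC followed by AGAC would share its last C with CAGAC.
TGFB1: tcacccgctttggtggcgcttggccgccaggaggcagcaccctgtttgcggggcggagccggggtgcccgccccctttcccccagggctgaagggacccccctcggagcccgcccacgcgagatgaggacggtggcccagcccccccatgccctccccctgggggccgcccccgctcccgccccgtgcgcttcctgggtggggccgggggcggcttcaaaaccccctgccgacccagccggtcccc
TGFBI: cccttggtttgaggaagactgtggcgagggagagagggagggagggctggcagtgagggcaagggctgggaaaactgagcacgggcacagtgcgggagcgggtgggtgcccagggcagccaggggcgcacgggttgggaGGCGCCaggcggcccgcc
BMP4: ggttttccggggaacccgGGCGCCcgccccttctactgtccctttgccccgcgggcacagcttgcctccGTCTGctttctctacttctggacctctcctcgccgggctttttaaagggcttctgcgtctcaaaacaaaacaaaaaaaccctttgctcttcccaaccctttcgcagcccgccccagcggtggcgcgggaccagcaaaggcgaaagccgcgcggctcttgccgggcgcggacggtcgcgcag
BAMBI: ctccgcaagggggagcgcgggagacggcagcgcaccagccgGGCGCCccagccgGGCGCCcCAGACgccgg
ID1: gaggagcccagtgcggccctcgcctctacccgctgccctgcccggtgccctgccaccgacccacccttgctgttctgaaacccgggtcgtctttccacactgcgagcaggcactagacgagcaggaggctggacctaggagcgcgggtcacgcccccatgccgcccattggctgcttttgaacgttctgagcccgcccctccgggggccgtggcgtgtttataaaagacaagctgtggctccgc
The BAMBI stretch of 71 bases held 1 CAGAC and 2 GGCGCC (2 and 3 in its whole window of 250 bases), the BMP4 stretch of 250 bases held 1 of each (the first of 3 BMP4 starts, of whose other windows 1 held a CAGAC and neither a GGCGCC), the TGFBI stretch of 157 bases held 1 GGCGCC, and those of TGFB1 and ID1 held neither. Over windows of 250 bases before a start, CAGAC was found in 38% and GGCGCC in 16.4% of all 35116 windows. RefSeq windows were found for 45 of the 50 members, which have 83 windows since some genes have several starts, and of these 33 (39.8%) held CAGAC and 19 (22.9%) held GGCGCC. A match is a stretch of letters only, and binding was not measured.

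Library totals ran from 5825779 to 8991051 counts. FLCN had 12.7, 16.7 and 16.5 CPM (counts scaled to a normalized library size of 1e+06) in short-term nontarget libraries and 5.95, 6.58 and 5.66 CPM after short-term knockdown (log2FC −1.29, SE 0.174, adjusted p = 1.12e-04 in edgeR), and 9.92, 11.9 and 12.2 against 6.7, 6.31 and 7.97 CPM in the long-term cells (log2FC −0.68, SE 0.173, adjusted p = 0.00611 in edgeR). The knockdown libraries lay below the nontarget libraries of their time in both comparisons. Of 11 proximal tubule markers only 3 (GGT1, MME and SLC5A2) had a mean of at least 1 CPM over the 12 libraries, and LRP2, SLC22A6 and HNF4A had no count in any, while of 6 renal epithelial genes reported here PAX8, KRT8, KRT18 and EPCAM were expressed in each group. CDH1 was at most 0.906 CPM and PAX2 at most 1.7 CPM in any library, and both had no count in the long-term knockdown libraries. The 11 proximal tubule markers summed to 101 to 114 (nontarget) and 144 to 155 CPM (knockdown) in short-term cells and to 78.2 to 98.1 and 162 to 175 CPM in long-term cells. CALB1, the one distal nephron marker of 5 with a mean of at least 1 CPM, was lower after knockdown at both times, with 0.82 to 1.37 and 0 to 0.177 CPM short-term and 2.95 to 5.69 and 0 to 0.116 CPM long-term (adjusted p in edgeR 0.0146 and 2.83e-06). PAX8 (log2FC −0.61, adjusted p = 2.04e-04 in edgeR) and EPCAM (−0.58, 0.0237) were lower after long-term knockdown, and PAX8 was higher after short-term knockdown (0.33, 0.049). Summed markers were between 24.6 and 56.8 CPM for fibroblasts (7 genes, of which COL1A1, LUM and PDGFRB had a mean of at least 1 CPM), at most 2.2 CPM for endothelial cells and at most 0.518 CPM for immune cells. The summed fibroblast markers were 49.2 to 56.8 CPM in short-term and 24.6 to 36.8 CPM in long-term libraries, but single genes went different ways. LUM had 0.259 to 1.55 CPM in long-term nontarget libraries and 9.16 to 14.5 CPM with the FLCN hairpin (19.3 to 27.3 and 15.6 to 27.9 CPM short-term), whereas PDGFRB had 5.27 to 9.32 and 0.347 to 1.19 CPM (2.89 to 4.71 and 1.39 to 3.72 CPM short-term). The part of these marker genes in the results was not tested. In RNA from bulk cultures, a lower share of cells that express a gene and less of its RNA in each cell cannot be told apart.

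More members differed after long-term than after short-term FLCN knockdown. After short-term knockdown, 4 of the 43 tested members were higher (5.62% of all genes tested were) and 1 was lower (4.71% of all genes) (edgeR quasi-likelihood test, Benjamini-Hochberg adjusted p below 0.05). Without a filter on low counts 10 members were called short-term (6.37% of all genes). With a term for the replicate number more members were called short-term, as given further below, and so were more of all genes (16.9%). With long-term knockdown, 8 members rose (13.7% of all genes) and 10 fell (15.8% of all genes). The members called make up 11.6% (short-term) and 41.9% (long-term) of those tested. With the further limit of a 2.5-fold change in either direction, 2 members passed after short-term knockdown (1.6% of all genes tested) and 6 after long-term knockdown (5.87%). The median log2 fold change (log2FC) of the 43 members was 0.01 short-term and −0.23 long-term, against 0.00 for all genes tested in each comparison. GREM1 was called in both, and the share of all genes called in both was not counted.

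The 2 ageing comparisons set long-term against short-term cells that carry the same hairpin, and they share their libraries with the knockdown comparisons. The labels do not say whether the replicates of a group were passaged as separate cultures. In the ageing, long-term knockdown and interaction comparisons, effects of time and drift of a single culture cannot be told apart. In nontarget cells 3 members were higher (3.17% of all genes) and 4 lower (4.38%) after long-term growth, with a median log2 fold change of 0.07 (0.01 over all genes). Of these 7 calls, 3 were kept without short-term nontarget replicate 1, and 4 without short-term nontarget replicate 2 or without long-term nontarget replicate 1 or 2. In knockdown cells 9 were higher (11.5%) and 14 lower (15.2%), with a median of −0.12 (0.01 over all genes). The test of the difference itself, the long-term minus the short-term knockdown effect (the interaction of knockdown and time), called 13 members: 4 with a higher effect after long-term knockdown (4.98% of all genes) and 9 with a lower effect (8.43%). With a fold limit of 2 for ageing, 1 member passed in nontarget cells (2.74% of all genes) and 10 in knockdown cells (8.28%), and with a limit of 2.5 for the interaction 6 passed (5.14%). In all, 29 of the 43 tested members passed in at least 1 of the 5 comparisons (43% of all genes tested did) and 14 passed in none.

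**Figure D1:**
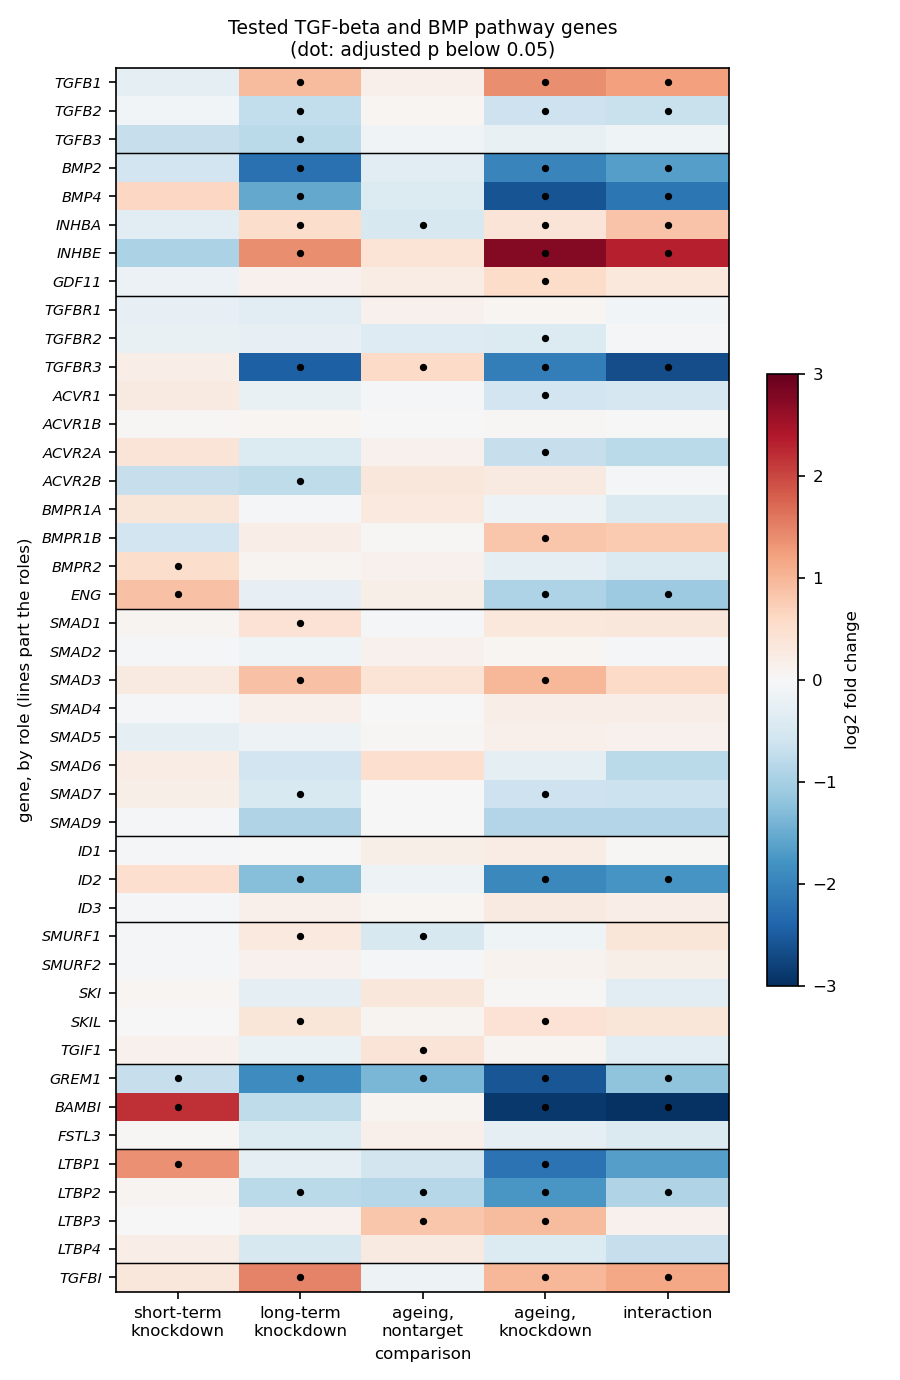
Log2 fold changes (log2FC) of the 43 tested members (rows, ordered by role with lines between roles) in the 5 comparisons (columns), in colour from blue (lower) to red (higher), with a dot where the edgeR adjusted p was below 0.05. Dots are few in the short-term column (5) and most frequent for ageing in knockdown cells (23).

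Among the TGF-beta ligands, TGFB1 rose while TGFB2 and TGFB3 fell after long-term knockdown (29.5% of all genes tested passed). None of the 3 passed after short-term knockdown (10.3% of all genes did). TGFB1 (chr19:41301587-41353911) had 127, 105 and 116 CPM in short-term nontarget libraries and 82.5, 84.2 and 121 CPM after short-term knockdown. Long-term, TGFB1 had 106, 110 and 173 CPM with the nontarget and 220, 209 and 323 CPM with the FLCN hairpin. Its 3 long-term knockdown libraries were the highest of the 12 and did not overlap with the long-term nontarget libraries (log2FC 0.95, SE 0.204, adjusted p = 0.00237 in edgeR), while the short-term groups overlapped (log2FC −0.28, SE 0.207, adjusted p = 0.472 in edgeR). The long-term effect exceeded the short-term effect by 1.23 in log2 units, with an SE of 0.29 and an edgeR adjusted p of 0.00974. Exons of TGFB1 overlap HNRNPUL1 in the annotation, and the strand setting of the counting is not stated, so reads of the shared stretch could not be assigned here. The same holds for TGFB2 (TGFB2-OT1), TGFB3 (TGFB3-AS1), GDF11 (SARNP), ACVR2A (ORC4), SMAD1 (SMAD1-AS1), SMAD5 (SMAD5-AS1), ID2 (ID2-AS1), SMURF1 (TRRAP) and SMURF2 (CEP95), and for ENG, SMAD3, SMAD4, GREM1, LTBP1 and LTBP2, which overlap genes known only by clone names.

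TGFB2 (chr1:218346235-218444619) had 224, 206 and 242 CPM in short-term nontarget libraries and 203, 188 and 244 CPM after short-term knockdown. Long-term, TGFB2 had 262, 209 and 224 CPM with the nontarget and 146, 133 and 134 CPM with the FLCN hairpin. All long-term knockdown libraries lay below the other 9 libraries, and the mean fell by 40.6% against long-term nontarget cells (log2FC −0.75, SE 0.114, adjusted p = 7.69e-05 in edgeR), with an interaction of −0.67 (SE 0.16, adjusted p in edgeR = 0.00907). TGFB3 (chr14:75958099-75982991), the least abundant of the 3, had 3.01, 4.56 and 5.18 CPM in short-term nontarget libraries and 1.77, 3.8 and 1.95 CPM after short-term knockdown. Long-term, TGFB3 had 4.56, 4.03 and 3.11 CPM with the nontarget and 2.43, 1.91 and 1.87 CPM with the FLCN hairpin. The long-term groups of TGFB3 did not overlap (log2FC −0.81, SE 0.299, adjusted p = 0.0499 in edgeR), but the call was lost when any library of that comparison other than long-term nontarget replicate 3 was left out (adjusted p 0.0677 to 0.153) and with DESeq2 (adjusted p = 0.0976). Per kilobase of exon, TGFB2 had 43.5 ± 3.47 CPM and TGFB1 35.8 ± 3.43 CPM per kb in short-term nontarget cells (SD, n = 3). After long-term knockdown the order was the other way around, with 26.7 ± 1.36 CPM per kb for TGFB2 and 77.4 ± 19.5 for TGFB1.

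Of the 5 BMP members, BMP2 and BMP4 had enough counts to be tested, and both fell after long-term knockdown. BMP2 (chr20:6767664-6780280) had 24.7, 24 and 22.8 CPM in short-term nontarget libraries and 13.3, 14.2 and 20.7 CPM after short-term knockdown. Long-term, BMP2 had 20.2, 19.2 and 17.2 CPM with the nontarget and 2.66, 3.37 and 5.77 CPM with the FLCN hairpin. The long-term knockdown libraries were below all others, and the mean fell by 79.2% against long-term nontarget cells (log2FC −2.23, SE 0.226, adjusted p = 9.58e-07 in edgeR). After short-term knockdown BMP2 did not pass, although the groups did not overlap (log2FC −0.58, SE 0.191, adjusted p = 0.0662 in edgeR), and the interaction was −1.65 (SE 0.295, adjusted p in edgeR = 8.37e-04).

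BMP4 (chr14:53949736-53958761) had 3.28, 3.49 and 4.4 CPM in short-term nontarget libraries and 5.57, 6.58 and 5.49 CPM after short-term knockdown. Long-term, BMP4 had 2.28, 2.63 and 3.23 CPM with the nontarget and 1.04, 0.147 and 1.02 CPM with the FLCN hairpin. These values rest on few reads, with 75, 120, 59 and 16 counts over the 3 libraries of each group in the same order. BMP4 was highest after short-term knockdown, which did not pass (log2FC 0.63, SE 0.267, adjusted p = 0.163 in edgeR), and lowest after long-term knockdown (log2FC −1.54, SE 0.342, adjusted p = 0.00226 in edgeR), so that the effects at the 2 times differed by −2.17 (SE 0.43, adjusted p in edgeR = 0.0021). Of the other BMPs, BMP7, known for its part in nephron formation, had no count in any library, BMP6 had 4 counts over the 12 libraries (1 and 3 in the long-term nontarget and knockdown groups) and BMP8A had 0, 11, 3 and 5 counts in the 4 groups. None of the 3 was tested.

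The inhibin beta subunits INHBA and INHBE, whose dimers are activins, rose after long-term knockdown. INHBA (chr7:41667168-41705834), the subunit of activin A, had 391, 366 and 425 CPM in short-term nontarget libraries and 283, 261 and 391 CPM after short-term knockdown. Long-term, INHBA had 286, 262 and 303 CPM with the nontarget and 402, 427 and 393 CPM with the FLCN hairpin. Long-term knockdown libraries were above long-term nontarget libraries (log2FC 0.52, SE 0.126, adjusted p = 0.00436 in edgeR), and the short-term groups overlapped (log2FC −0.34, SE 0.126, adjusted p = 0.103 in edgeR). The median log2 fold change of the 40 tested genes nearest to INHBA on chromosome 7 was 0.34 in the long-term comparison and 0.42 for the interaction, where INHBA had 0.86 (SE 0.178, adjusted p in edgeR = 0.00294), and the part of the neighbours in the result was not tested. In nontarget cells INHBA fell with ageing (log2 fold change −0.47, adjusted p in edgeR = 0.0277) and in knockdown cells it rose (0.39, adjusted p = 0.0296). The nontarget call was lost without short-term nontarget replicate 1 or 3 or long-term nontarget replicate 1 or 2 (adjusted p 0.0632 to 0.125), and the knockdown call without replicate 1 or 2 of either knockdown group (adjusted p 0.0664 to 0.141) and when only these 2 groups were fitted (0.0919).

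INHBE (chr12:57452323-57459280), the activin E subunit, had 2.19, 2.89 and 2.67 CPM in short-term nontarget libraries and 0.633, 1.46 and 1.59 CPM after short-term knockdown. Long-term, INHBE had 4.02, 2.94 and 3.49 CPM with the nontarget and 7.28, 10.7 and 11.2 CPM with the FLCN hairpin. The 4 groups did not overlap, with short-term knockdown at the bottom and long-term knockdown at the top. INHBE was higher after long-term knockdown (log2FC 1.39, SE 0.241, adjusted p = 2.75e-04 in edgeR) and did not pass after short-term knockdown (log2FC −0.95, SE 0.318, adjusted p = 0.0664 in edgeR). Its interaction of 2.34 (SE 0.407, adjusted p in edgeR = 6.61e-04) was the largest positive value among the members. INHBB had 2 counts after short-term knockdown, 2 in long-term nontarget cells and none in the other groups. GDF11, a ligand close to myostatin, was at 30.6 to 57.8 CPM in the 12 libraries and passed for ageing in knockdown cells alone (log2FC 0.55, SE 0.14, adjusted p = 0.00708 in edgeR).

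**Figure D2:**
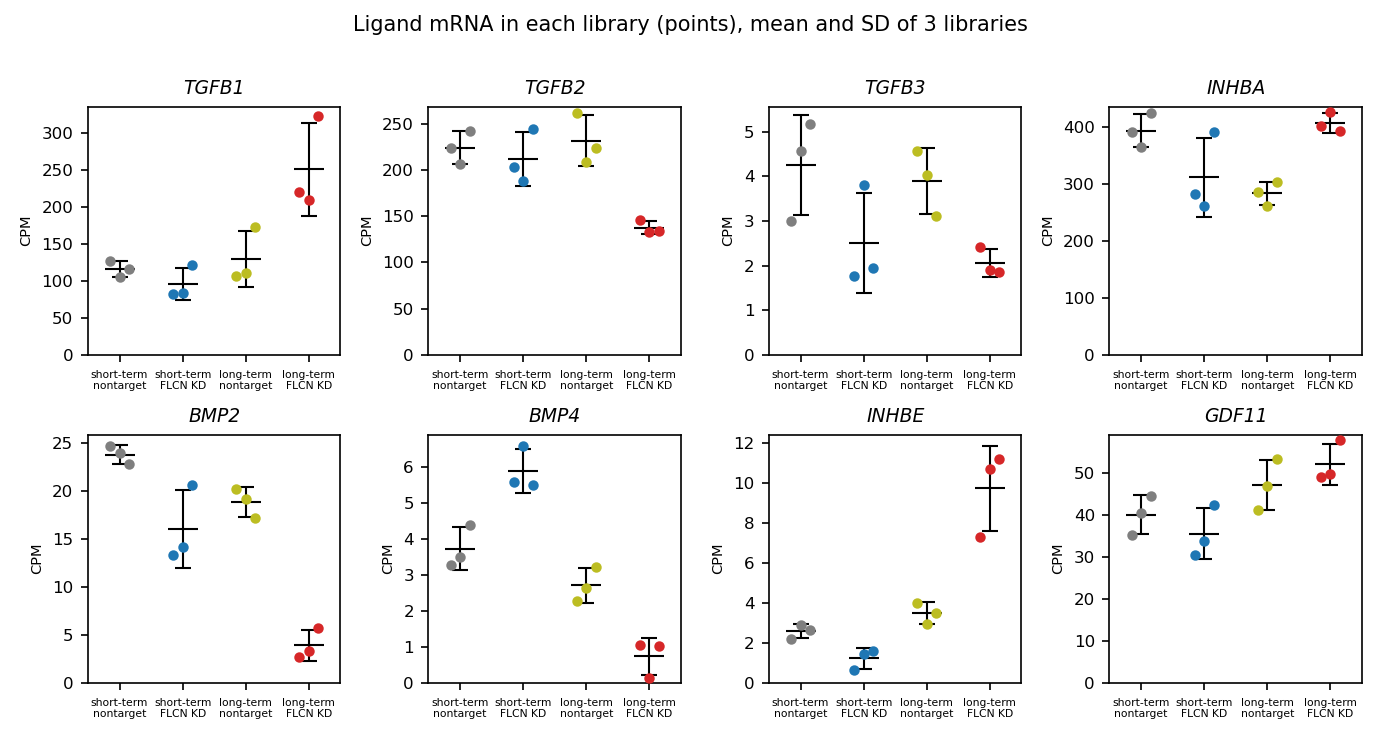
CPM of the 8 tested ligands in each library (points, replicates 1 to 3 from left to right) for the 4 groups on the horizontal axis, with the mean and SD of 3 libraries as bars and an axis from 0 in each panel. TGFB1 and INHBE are highest, and TGFB2, BMP2 and BMP4 lowest, in the 3 long-term knockdown libraries.

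Among the 11 receptors and co-receptors, TGFBR3 and ACVR2B fell after long-term knockdown and ENG and BMPR2 rose after short-term knockdown. TGFBR3 (betaglycan, chr1:91680343-91906335), a co-receptor that presents TGF-beta to the signaling receptors, had 11.6, 11.8 and 8.64 CPM in short-term nontarget libraries and 13.8, 11.1 and 12.2 CPM after short-term knockdown. Long-term, TGFBR3 had 15.8, 16.9 and 15.5 CPM with the nontarget and 2.66, 2.2 and 3.39 CPM with the FLCN hairpin. Each long-term knockdown library was below all other libraries, and the mean fell by 82.9% against long-term nontarget cells (log2FC −2.44, SE 0.194, adjusted p = 6.05e-08 in edgeR) with no short-term call (log2FC 0.20, SE 0.169, adjusted p = 0.524 in edgeR). The interaction was −2.65 (SE 0.258, adjusted p in edgeR = 2.05e-06). In nontarget cells TGFBR3 rose with ageing (log2FC 0.57, SE 0.165, adjusted p = 0.0422 in edgeR), a call that was lost without any 1 of the 6 libraries (adjusted p 0.0721 to 0.187), with DESeq2 (0.0715) and without a filter (0.0552).

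ENG (endoglin, chr9:127815012-127854756), a co-receptor for TGF-beta and BMP ligands best known from endothelial cells, had 69.3, 68.2 and 56.9 CPM in short-term nontarget libraries and 108, 105 and 143 CPM after short-term knockdown. Long-term, ENG had 62, 68.8 and 89.8 CPM with the nontarget and 55.8, 53.4 and 78.7 CPM with the FLCN hairpin. All short-term knockdown libraries were above the other 9, and ENG rose by 83% in mean CPM at that time (log2FC 0.87, SE 0.169, adjusted p = 0.003 in edgeR). The long-term groups overlapped (log2FC −0.24, SE 0.17, adjusted p = 0.329 in edgeR), and the interaction was −1.10 (SE 0.239, adjusted p in edgeR = 0.00469). The endothelial markers PECAM1, VWF, CDH5, KDR and TEK summed to 0.531 to 1.01 CPM in the libraries where ENG was highest.

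BMPR2 (chromosome 2), the type II receptor for BMPs, was at 47.8 to 56.4 CPM in short-term nontarget and 69.7 to 81.2 CPM in short-term knockdown libraries, which did not overlap (log2FC 0.52, SE 0.111, adjusted p = 0.00574 in edgeR). It was at 50.2 to 61.8 and 57.8 to 62.5 CPM in the long-term groups (log2FC 0.09, SE 0.111, adjusted p = 0.608 in edgeR). The median log2 fold change of its 40 nearest tested genes was 0.30 after short-term knockdown, and their part in the result was not tested. ACVR2A and ACVR1, on the same chromosome, had neighbour medians of −0.28 and −0.36 for ageing in knockdown cells, the comparison in which both fell.

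ACVR2A (chr2:147844517-147930826), a type II receptor for activins, had 6.42, 6.38 and 5.18 CPM in short-term nontarget libraries and 7.59, 7.02 and 9.38 CPM after short-term knockdown. Long-term, ACVR2A had 8.84, 5.88 and 4.92 CPM with the nontarget and 5.66, 5.43 and 3.22 CPM with the FLCN hairpin. It fell with ageing in knockdown cells (log2FC −0.68, SE 0.242, adjusted p = 0.0459 in edgeR), where the groups did not overlap. This call was lost when any 1 library other than long-term knockdown replicate 1 was left out (adjusted p 0.0528 to 0.142, log2FC −0.77 to −0.49), with DESeq2 (0.0743) and when only these 2 groups were fitted (0.0639). ACVR1, a BMP type I receptor, was at 25.5 to 30.1 CPM in short-term and 15.1 to 21.1 CPM in long-term knockdown libraries (log2FC −0.58, SE 0.142, adjusted p = 0.00587 in edgeR). ACVR2B (chr3:38453851-38493142), the other type II activin receptor, had 7.11, 5.32 and 8.17 CPM in short-term nontarget libraries and 4.3, 3.95 and 4.07 CPM after short-term knockdown. Long-term, ACVR2B had 8.17, 9.6 and 8.67 CPM with the nontarget and 5.89, 3.52 and 5.6 CPM with the FLCN hairpin. Knockdown libraries were below nontarget libraries at both times, with a call for long-term knockdown (log2FC −0.77, SE 0.209, adjusted p = 0.00911 in edgeR) and none for short-term knockdown (log2FC −0.70, SE 0.222, adjusted p = 0.0536 in edgeR), and the interaction was −0.07 (SE 0.342, adjusted p in edgeR = 0.922). Without long-term knockdown replicate 2 the long-term adjusted p was 0.0508.

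BMPR1B (chr4:94757968-95158448), a type I receptor for BMPs, had 7.38, 8.5 and 5.81 CPM in short-term nontarget libraries and 5.44, 5.12 and 3.54 CPM after short-term knockdown. Long-term, BMPR1B had 6.43, 7.43 and 8.41 CPM with the nontarget and 8.32, 9.68 and 7.97 CPM with the FLCN hairpin. It was lowest after short-term knockdown and rose with ageing in knockdown cells (log2FC 0.83, SE 0.206, adjusted p = 0.00623 in edgeR), with no call for knockdown at either time. TGFBR2, the type II receptor for TGF-beta, was at 55.4 to 67.6 CPM in short-term and fell to between 39 and 49.7 CPM in long-term knockdown libraries (log2FC −0.42, SE 0.134, adjusted p = 0.0263 in edgeR), a call lost without short-term knockdown replicate 3 or long-term knockdown replicate 2 or 3 (adjusted p 0.0545 to 0.0995). The type I receptors TGFBR1, ACVR1B and BMPR1A passed in none of the 5 comparisons, with log2 fold changes after long-term knockdown of −0.34 (SE 0.149), 0.07 (SE 0.11) and −0.07 (SE 0.115). Per kilobase of exon, ENG (16.5 ± 1.75 CPM per kb) and TGFBR2 (14.9 ± 2.63) were the most abundant of the 11 receptors and co-receptors in short-term nontarget cells and did not differ from each other beyond 1 SD, and ACVR2B (0.436 ± 0.0916) was the least abundant.

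Of the 8 SMADs, SMAD3 and SMAD1 rose and SMAD7 fell after long-term knockdown, where 29.5% of all genes tested passed. None of the SMADs passed after short-term knockdown, for ageing in nontarget cells or for the interaction (10.3%, 7.55% and 13.4% of all genes did). SMAD3 (chr15:67063763-67195195), which carries TGF-beta and activin signals, had 73.8, 68 and 124 CPM in short-term nontarget libraries and 93.9, 109 and 121 CPM after short-term knockdown. Long-term, SMAD3 had 106, 117 and 129 CPM with the nontarget and 211, 211 and 221 CPM with the FLCN hairpin. The 3 long-term knockdown libraries were above all others, and the mean rose by 82.5% against long-term nontarget cells (log2FC 0.87, SE 0.171, adjusted p = 0.00108 in edgeR). The long-term effect of SMAD3 was not shown to differ from the short-term effect (log2FC 0.28, SE 0.174, adjusted p = 0.367 in edgeR), as the interaction was 0.58 (SE 0.244, adjusted p in edgeR = 0.136).

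SMAD7, the inhibitory SMAD that TGF-beta induces, had 41.6, 37.1 and 45.4 CPM in short-term nontarget libraries and 43.1, 46.5 and 51.3 CPM after short-term knockdown. Long-term, SMAD7 had 35.8, 37.8 and 51.9 CPM with the nontarget and 26.3, 28.9 and 36.5 CPM with the FLCN hairpin. Its long-term groups overlapped by a small margin, since long-term nontarget replicate 1 lay below long-term knockdown replicate 3 (log2FC −0.46, SE 0.154, adjusted p = 0.0327 in edgeR). This call was lost without long-term nontarget replicate 3 (log2 fold change −0.28, adjusted p = 0.192) and without long-term knockdown replicate 1 (−0.36, 0.145) or 2 (−0.43, 0.0932), and when only these 2 groups were fitted (−0.46, 0.0719). SMAD7 also fell with ageing in knockdown cells, where the groups did not overlap (log2FC −0.62, SE 0.154, adjusted p = 0.00615 in edgeR). SMAD1, which carries BMP signals, was at 8.67 to 11.4 CPM in nontarget and 12.7 to 14.1 CPM in knockdown libraries of the long-term cells (log2FC 0.44, SE 0.158, adjusted p = 0.0465 in edgeR). The call of SMAD1 was lost without any library of that comparison other than long-term nontarget replicate 1 (adjusted p 0.0719 to 0.173), with DESeq2 (0.105), without a filter (0.115) and when only these 2 groups were fitted (0.0845).

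SMAD2, SMAD4, SMAD5, SMAD6 and SMAD9 passed in no comparison. The widely shared SMAD4 was at 39.6 to 55.1 CPM in the 12 libraries and SMAD2 at 59 to 77.2 CPM, with log2 fold changes after long-term knockdown of 0.15 (SE 0.121) and −0.12 (SE 0.104). SMAD5, of the BMP branch, had a long-term log2FC of −0.16 (SE 0.133). For SMAD6, the inhibitory SMAD of the BMP branch, the long-term value was −0.58 with an SE of 0.283 (adjusted p in edgeR = 0.141), and for SMAD9, with 23 to 49 counts a group, −0.91 with an SE of 0.43 (adjusted p = 0.128).

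**Figure D3:**
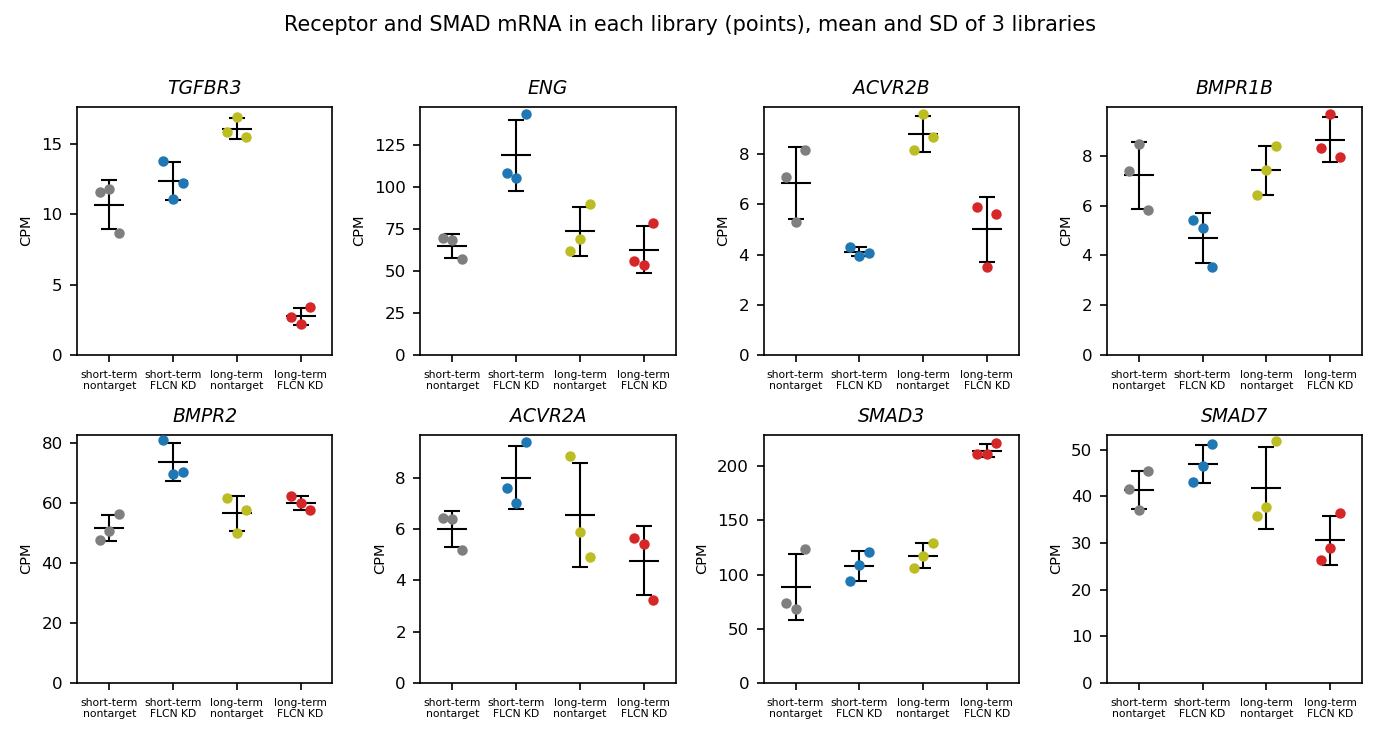
CPM of 6 receptors or co-receptors and of SMAD3 and SMAD7 in each library (points, replicates 1 to 3 from left to right) for the 4 groups, with the mean and SD of 3 libraries as bars and an axis from 0 in each panel. TGFBR3 is lowest and SMAD3 highest in the long-term knockdown libraries, and ENG and BMPR2 are highest in the short-term knockdown libraries.

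The ID genes encode inhibitors of basic helix-loop-helix transcription factors and are direct targets of the BMP-activated SMADs. ID2 (chr2:8678845-8684453) had 20.9, 18.8 and 25.8 CPM in short-term nontarget libraries and 29.1, 22.8 and 41.9 CPM after short-term knockdown. Long-term, ID2 had 20.6, 13.3 and 24.2 CPM with the nontarget and 9.24, 7.34 and 6.95 CPM with the FLCN hairpin. All long-term knockdown libraries were below the other 9, and the mean fell by 59.5% against long-term nontarget cells (log2FC −1.27, SE 0.247, adjusted p = 8.74e-04 in edgeR), while the 40 nearest tested genes had a median log2 fold change of 0.31. After short-term knockdown ID2 did not pass (log2FC 0.51, SE 0.221, adjusted p = 0.178 in edgeR), and the interaction was −1.77 (SE 0.331, adjusted p in edgeR = 0.00141).

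ID1, the most abundant of the 3 tested per kilobase of exon (113 ± 6.36 CPM per kb in short-term nontarget cells, against 28.7 ± 7.42 for ID3 and 9.9 ± 1.61 for ID2), had 141, 131 and 146 CPM in short-term nontarget libraries and 123, 100 and 188 CPM after short-term knockdown. Long-term, ID1 had 127, 130 and 217 CPM with the nontarget and 140, 145 and 194 CPM with the FLCN hairpin. The 4 groups overlapped (log2FC 0.01, SE 0.222, adjusted p = 0.978 in edgeR for long-term knockdown). ID3 also passed in no comparison, with 50.7, 38.6 and 65.2 CPM in short-term nontarget libraries and 39, 29.8 and 82.3 CPM after short-term knockdown. Long-term, ID3 had 40.9, 38.7 and 81.9 CPM with the nontarget and 52.2, 50.5 and 79 CPM with the FLCN hairpin. In each group replicate 3 had the highest ID1 and ID3 values, and ID3 had a log2 fold change of 0.16 with an SE of 0.357 after long-term knockdown. ID4 had 3 and 6 counts in the short-term and long-term nontarget groups and none in the knockdown groups, and was not tested.

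TGFBI (chr5:136028895-136063818) encodes an extracellular matrix protein named for its induction by TGF-beta. It had 866, 745 and 941 CPM in short-term nontarget libraries and 958, 985 and 1272 CPM after short-term knockdown. Long-term, TGFBI had 703, 687 and 886 CPM with the nontarget and 2124, 1952 and 2308 CPM with the FLCN hairpin. The long-term knockdown libraries were well above all others, with a rise of 180% in mean CPM (log2FC 1.49, SE 0.133, adjusted p = 2.31e-07 in edgeR). After short-term knockdown the libraries lay just above their controls without passing the test (log2FC 0.33, SE 0.13, adjusted p = 0.126 in edgeR), and the interaction was 1.15 (SE 0.185, adjusted p in edgeR = 3.11e-04).

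Among the antagonists, GREM1 fell in each of the 4 comparisons of groups. GREM1 (chr15:32717974-32745107) encodes gremlin, a secreted protein that binds BMP2, BMP4 and BMP7 and keeps them from their receptors. It had 1123, 1066 and 1035 CPM in short-term nontarget libraries and 719, 643 and 657 CPM after short-term knockdown. Long-term, GREM1 had 410, 410 and 439 CPM with the nontarget and 121, 101 and 120 CPM with the FLCN hairpin. The 4 groups did not overlap and fell in that order, from a mean of 1075 ± 44.3 CPM to 673 ± 40.9, 420 ± 16.8 and 114 ± 11.2 CPM (SD, n = 3). GREM1 fell by 37.4% after short-term knockdown (log2FC −0.68, SE 0.0932, adjusted p = 1.41e-04 in edgeR) and fell by 72.8% after long-term knockdown (log2FC −1.88, SE 0.0977, adjusted p = 3.47e-10 in edgeR). It fell by 60.9% with ageing in nontarget cells (log2FC −1.36, SE 0.0945, adjusted p = 1.30e-07 in edgeR). The interaction of −1.20 (SE 0.133, adjusted p in edgeR = 7.66e-06) means that the long-term knockdown effect was the larger. Per kilobase of exon, GREM1 had 73.6 ± 3.04 CPM per kb in short-term nontarget cells and 7.82 ± 0.767 after long-term knockdown, against 6.62 ± 0.275 and 1.09 ± 0.452 for BMP2 and 1.21 ± 0.193 and 0.238 ± 0.165 for BMP4.

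BAMBI (chr10:28677342-28682939) encodes a membrane protein that resembles a type I receptor without its kinase and acts as a decoy. It had 0.957, 2.43 and 1.73 CPM in short-term nontarget libraries and 9.24, 10.4 and 6.37 CPM after short-term knockdown. Long-term, BAMBI had 0.938, 1.55 and 2.85 CPM with the nontarget and 1.04, 1.03 and 0.678 CPM with the FLCN hairpin, from 34, 180, 39 and 20 counts a group. The 3 short-term knockdown libraries were above the other 9, which makes BAMBI the member with the largest log2 fold change after short-term knockdown (log2FC 2.19, SE 0.323, adjusted p = 2.56e-04 in edgeR). After long-term knockdown the groups overlapped (log2FC −0.77, SE 0.394, adjusted p = 0.159 in edgeR), and the interaction was −2.96 (SE 0.533, adjusted p in edgeR = 8.89e-04). FSTL3, a secreted activin-binding protein, was at 60.5 to 131 CPM in the 12 libraries and passed in no comparison (log2FC −0.41, SE 0.242, adjusted p = 0.233 in edgeR for long-term knockdown). The BMP antagonist NOG had 1 to 5 counts and the activin antagonist FST 2 to 9 counts in each group, and neither was tested.

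The LTBP genes, whose products hold latent TGF-beta in the matrix (apart from LTBP2, a close relative in the same matrix), differed from each other. LTBP2 (chr14:74498170-74612378) had 157, 146 and 173 CPM in short-term nontarget libraries and 158, 157 and 192 CPM after short-term knockdown. Long-term, LTBP2 had 72.4, 82.2 and 110 CPM with the nontarget and 46.3, 43.9 and 60.2 CPM with the FLCN hairpin. It fell after long-term knockdown (log2FC −0.81, SE 0.153, adjusted p = 5.66e-04 in edgeR) and with ageing in nontarget cells (log2FC −0.85, SE 0.148, adjusted p = 0.00137 in edgeR), where the 40 nearest tested genes had a median of −0.36, and in neither comparison did the groups overlap. The short-term groups overlapped (log2FC 0.09, SE 0.146, adjusted p = 0.782 in edgeR), and the interaction was −0.90 (SE 0.211, adjusted p in edgeR = 0.00726).

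LTBP3 (chr11:65538805-65558930) had 38.7, 33.9 and 46.5 CPM in short-term nontarget libraries and 32.3, 36 and 52.6 CPM after short-term knockdown. Long-term, LTBP3 had 49.7, 65 and 97.8 CPM with the nontarget and 68.6, 68.7 and 98.2 CPM with the FLCN hairpin. It rose with ageing in nontarget cells (log2FC 0.83, SE 0.235, adjusted p = 0.0419 in edgeR) and in knockdown cells (log2FC 0.96, SE 0.235, adjusted p = 0.0066 in edgeR), without a call for knockdown at either time. The nontarget call was lost without short-term nontarget replicate 1 or 2 or long-term nontarget replicate 2 or 3, with the lowest log2 fold change (0.52, adjusted p = 0.209) without long-term nontarget replicate 3. LTBP1 (chr2:32946972-33399509) had 0.957, 0.456 and 0.786 CPM in short-term nontarget libraries and 1.9, 1.75 and 3.54 CPM after short-term knockdown. Long-term, LTBP1 had 0.536, 0.31 and 0.388 CPM with the nontarget and 0.231, 0.293 and 0.339 CPM with the FLCN hairpin, from 15, 47, 9 and 6 counts a group. It rose after short-term knockdown (log2FC 1.36, SE 0.349, adjusted p = 0.0178 in edgeR), with a median of 0.28 for its 40 nearest tested genes on chromosome 2, and was lower in long-term than in short-term knockdown cells (log2FC −2.21, SE 0.373, adjusted p = 2.67e-04 in edgeR). The short-term call was lost without short-term nontarget replicate 2 or 3 or short-term knockdown replicate 3 (adjusted p 0.0546 to 0.101) and with DESeq2 (0.084). LTBP4 was at 56.9 to 118 CPM and passed in no comparison (log2FC −0.47, SE 0.181, adjusted p = 0.0593 in edgeR for long-term knockdown).

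**Figure D4:**
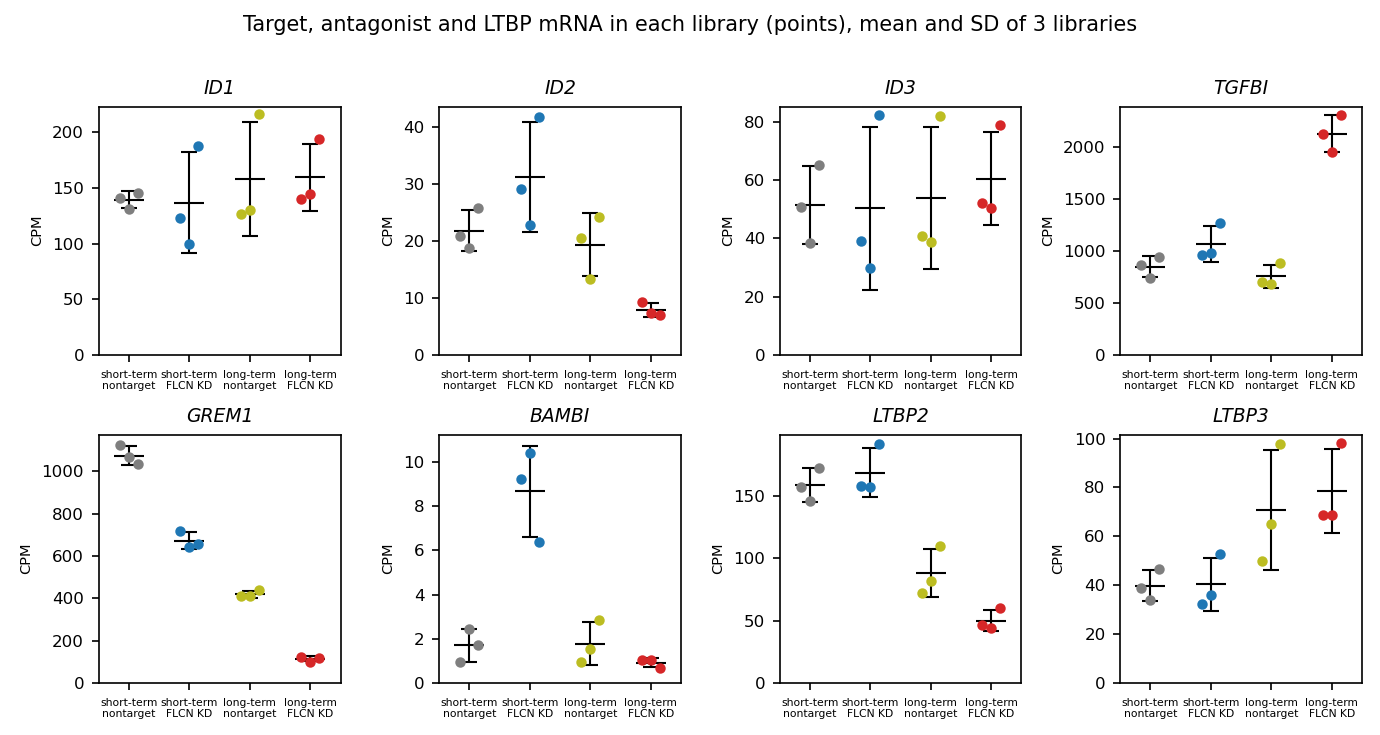
CPM of ID1, ID2, ID3, TGFBI, GREM1, BAMBI, LTBP2 and LTBP3 in each library (points, replicates 1 to 3 from left to right) for the 4 groups, with the mean and SD of 3 libraries as bars and an axis from 0 in each panel. GREM1 falls from group to group without overlap, TGFBI stands out in long-term and BAMBI in short-term knockdown libraries, and the groups of ID1 and ID3 overlap.

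The 5 intracellular regulators had log2 fold changes between −0.48 and 0.44 in the 4 comparisons of groups. SMURF1, a ubiquitin ligase that marks BMP SMADs and receptors for degradation, was at 40.9 to 44.3 CPM in nontarget and 50.2 to 54.1 CPM in knockdown libraries of the long-term cells (log2FC 0.30, SE 0.0968, adjusted p = 0.0266 in edgeR). It was at 56.6 to 60.6 CPM in short-term nontarget libraries, so that it fell with ageing in nontarget cells (log2FC −0.48, SE 0.0965, adjusted p = 0.00422 in edgeR). SKIL, a repressor of SMAD-driven transcription that TGF-beta induces, rose after long-term knockdown (log2FC 0.37, SE 0.129, adjusted p = 0.0387 in edgeR), where the groups overlapped, and with ageing in knockdown cells (log2FC 0.44, SE 0.13, adjusted p = 0.0177 in edgeR). The 40 nearest tested genes had median log2 fold changes after long-term knockdown of 0.37 for SMURF1 and 0.38 for SKIL, about the values of these genes themselves, and their part was not tested.

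The calls of these small changes were lost in some settings, while the direction stayed. The long-term call of SMURF1 was lost without replicate 1 or 3 of long-term nontarget or replicate 1 or 2 of long-term knockdown cells (adjusted p 0.0537 to 0.111, log2FC 0.26 to 0.32), without a filter (0.122) and when only these 2 groups were fitted (0.0889). That of SKIL was lost without replicate 2 or 3 of long-term nontarget or replicate 1 or 2 of long-term knockdown cells (0.136 to 0.166, log2FC 0.29 to 0.32) and when only these 2 groups were fitted (0.0819). The ageing call of SKIL was lost without short-term knockdown replicate 1 or long-term knockdown replicate 1 or 2 (0.0801 to 0.0927, log2FC 0.36 to 0.39). TGIF1, a corepressor of SMAD2 and SMAD3, rose with ageing in nontarget cells (log2FC 0.39, SE 0.0995, adjusted p = 0.0202 in edgeR), a call lost without short-term nontarget replicate 1 or 2 or long-term nontarget replicate 1 (0.0787 to 0.099, log2FC 0.33 to 0.38). SMURF2, a ligase for SMADs, and SKI, a SMAD repressor, passed in no comparison, with long-term knockdown log2FC of 0.14 (SE 0.127) and −0.27 (SE 0.167).

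**Figure D5:**
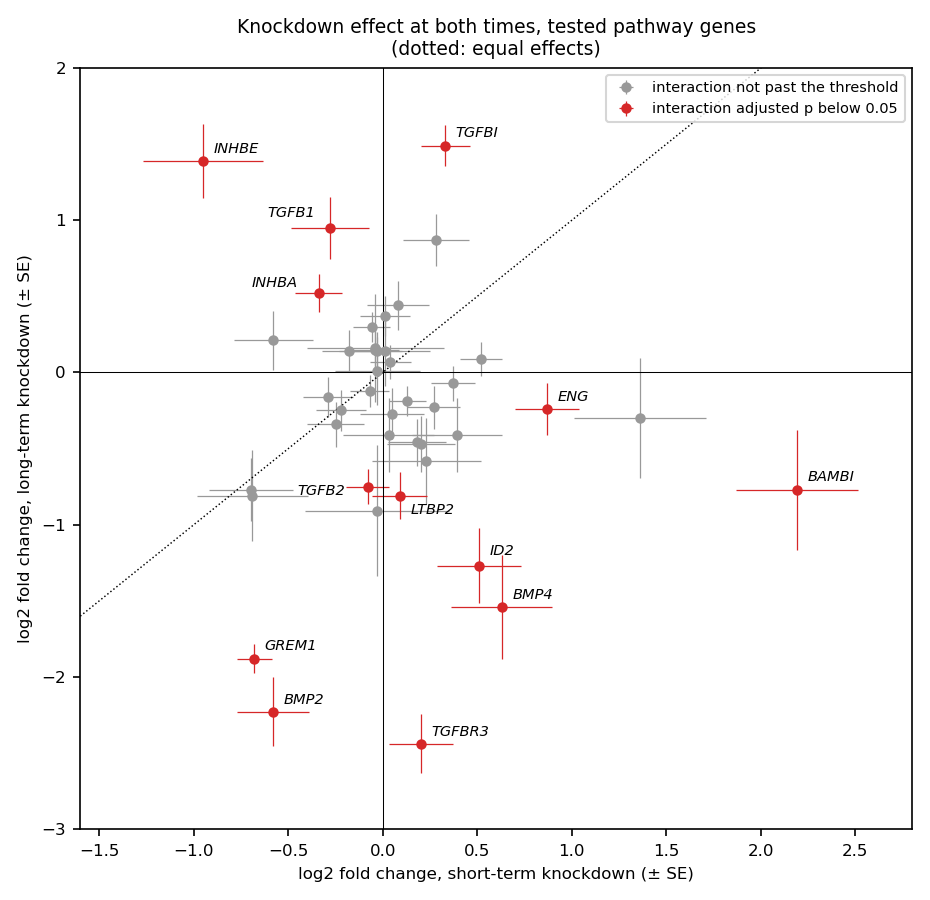
Log2 fold change (± SE) of the 43 tested members after short-term knockdown (horizontal axis) and after long-term knockdown (vertical axis), which share no library, with the 13 members whose interaction passed in red and named, and a dotted line where both effects would be equal. INHBE, TGFB1, INHBA and TGFBI lie above the line, and the other 9 named members below it. SE bars of members with few counts are shrunk along with their fold changes.

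The rest of the pathway was followed in a list of 124 other genes, of which 81 were tested. Of these, 11 rose and 10 fell with short-term knockdown, and 13 rose and 34 fell with long-term knockdown, with median log2 fold changes of 0.02 and −0.07. The genes called were 25.9% of the list short-term (10.3% of all genes tested) and 58% long-term (29.5% of all genes). This list too was chosen with earlier results of these data known. Of the 21 short-term calls, 13 were kept without short-term nontarget replicate 1 or short-term knockdown replicate 1 and 12 without short-term nontarget replicate 2. Of 6 tested ligands beyond the members, GDF6 rose after short-term knockdown (log2FC 0.78, SE 0.233, adjusted p = 0.0454 in edgeR) and fell after long-term knockdown (log2FC −1.35, SE 0.27, adjusted p = 0.00135 in edgeR). The short-term call of GDF6 was lost without short-term nontarget replicate 1 or 2 or short-term knockdown replicate 1 or 3 (adjusted p 0.0686 to 0.154). BMP8B, whose sequence is close to that of BMP8A, rose after short-term knockdown from 3.55, 2.89 and 3.14 to 8.35, 8.63 and 11.3 CPM (log2FC 1.47, SE 0.2, adjusted p = 1.27e-04 in edgeR), and how the counting shared reads between these 2 genes is not stated. After long-term knockdown GDF15 fell (log2FC −1.07, SE 0.236, adjusted p = 0.00262 in edgeR) and GDF7 rose (log2FC 1.16, SE 0.315, adjusted p = 0.00959 in edgeR), the latter a call lost without replicate 3 of either long-term group (adjusted p 0.0529 and 0.0553, log2FC 0.93 and 1.00) and with DESeq2 (0.0568). Of 3 tested receptors and co-receptors, NEO1, a receptor that binds the RGM co-receptors of BMPs, fell after long-term knockdown (log2FC −0.29, SE 0.0953, adjusted p = 0.0281 in edgeR). This call was lost when any 1 library other than long-term nontarget replicate 3 was left out (0.059 to 0.0683, log2FC −0.31 to −0.27), without a filter (0.127) and in a fit of these 2 groups (0.0698).

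Genes for storage and activation of latent ligands changed in 9 of 10 tested cases after long-term knockdown, 7 of them lower (29.5% of all genes tested changed and 15.8% were lower). FBN1 (fibrillin, the microfibril protein that LTBPs attach to) fell from 107, 111 and 139 to 18.7, 15.4 and 10.3 CPM (log2FC −2.96, SE 0.213, adjusted p = 5.14e-08 in edgeR), and the integrin subunit ITGB8, part of an integrin that activates latent TGF-beta, fell from 137, 85.9 and 105 to 17.1, 11.7 and 14.4 CPM (log2FC −2.89, SE 0.197, adjusted p = 1.83e-08 in edgeR). LRRC32, which displays latent TGF-beta on the cell surface, fell as well (log2FC −1.38, SE 0.252, adjusted p = 4.44e-04 in edgeR), as did the convertase PCSK5 (log2FC −2.14, SE 0.44, adjusted p = 0.00123 in edgeR), the latter from 39 to 4 counts over 3 libraries. The 2 that rose, named after their values were seen, were THBS1, which activates latent TGF-beta, and the integrin subunit ITGB6, with long-term log2 fold changes of 1.08 (adjusted p in edgeR = 6.94e-04) and 0.54 (adjusted p = 0.0062). After short-term knockdown ITGB6 (log2FC 0.83, SE 0.14, adjusted p = 7.62e-04 in edgeR), THBS1 (0.65, adjusted p = 0.0476) and ITGAV (0.37, adjusted p = 0.0344) were higher and FBN1 was lower (−0.74, adjusted p = 0.0212). The short-term calls were lost for THBS1 without replicate 1 or 2 of nontarget or 1 or 3 of knockdown cells (0.0565 to 0.188) and in a fit of the 2 groups (0.0769), for ITGAV without replicate 1 or 2 of either group (0.086 to 0.161), and for FBN1 without nontarget replicate 3 (0.112) or knockdown replicate 2 (0.0679). ITGB6 and ITGAV lie on chromosome 2, with neighbour medians of 0.25 and 0.22 in that comparison.

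Of 8 tested secreted antagonists and modulators beyond the members, 6 fell and CHRDL1 rose after long-term knockdown (15.8% of all genes fell and 13.7% rose). BGN (biglycan, a matrix proteoglycan that binds TGF-beta) went from 21.6, 21.2 and 28.9 CPM in nontarget to 0.693, 1.32 and 1.87 CPM in knockdown libraries of the long-term cells, so that the mean fell by 94.6% (SE 0.26 in log2 units, adjusted p in edgeR = 5.35e-09). The BMP antagonist NBL1 (log2FC −1.50, SE 0.177, adjusted p = 5.15e-06 in edgeR) and TWSG1, a BMP-binding partner of chordin (log2FC −1.41, SE 0.115, adjusted p = 7.90e-08 in edgeR), fell too. CHRDL1, a chordin-like BMP antagonist, had 188, 205 and 213 CPM in short-term nontarget libraries and 204, 253 and 160 CPM after short-term knockdown. Long-term, CHRDL1 had 44.2, 50.3 and 41 CPM with the nontarget and 122, 120 and 123 CPM with the FLCN hairpin. The higher value after long-term knockdown (log2FC 1.42, SE 0.138, adjusted p = 5.30e-07 in edgeR) stood against long-term nontarget libraries that were the lowest of all. After short-term knockdown FSTL1 was higher (log2FC 0.71, SE 0.128, adjusted p = 0.00147 in edgeR) and TWSG1 lower (log2FC −0.63, SE 0.114, adjusted p = 0.00147 in edgeR).

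Of 26 tested genes known as TGF-beta targets, 4 rose and 12 fell with long-term knockdown, and 4 rose and 7 fell with short-term knockdown. Of all genes tested, 13.7% rose and 15.8% fell long-term, and 5.62% rose and 4.71% fell short-term. HMGA2, a chromatin protein, fell from 592, 446 and 462 to 74.1, 71.5 and 67.2 CPM (log2FC −2.81, SE 0.137, adjusted p = 1.49e-10 in edgeR) and fibronectin (FN1) from 1364, 1482 and 2037 to 313, 288 and 251 CPM (log2FC −2.52, SE 0.163, adjusted p = 8.60e-09 in edgeR). The actin-binding protein TAGLN (log2FC −2.32, SE 0.128, adjusted p = 8.13e-10 in edgeR) and the basement membrane collagen COL4A1 (log2FC −1.95, SE 0.19, adjusted p = 1.51e-06 in edgeR) fell as well. After short-term knockdown HMGA2 (log2FC −1.01, SE 0.127, adjusted p = 5.64e-05 in edgeR), COL4A1 (log2FC −1.01, SE 0.185, adjusted p = 0.00243 in edgeR), CCN2 (connective tissue growth factor, log2FC −0.88, SE 0.137, adjusted p = 4.01e-04 in edgeR) and COL4A2 (log2FC −0.81, SE 0.177, adjusted p = 0.00731 in edgeR) were lower. The genes named here that rose were chosen after their values were seen. Long-term these were CDKN2B (log2FC 0.60, SE 0.174, adjusted p = 0.0146 in edgeR), a cell cycle inhibitor, LOXL2 (log2FC 0.51, SE 0.121, adjusted p = 0.0038 in edgeR), a collagen cross-linking enzyme, TSC22D1 (0.45, adjusted p = 0.00248) and the transcription factor BHLHE40 (0.37, adjusted p = 0.0122). Short-term they included FN1 (log2FC 0.65, SE 0.154, adjusted p = 0.011 in edgeR), BHLHE40 (log2FC 0.63, SE 0.108, adjusted p = 9.80e-04 in edgeR) and the transcription factor ZEB2 (0.54, adjusted p = 0.0449). The long-term calls were lost for CDKN2B without nontarget replicate 2 or knockdown replicate 2 or 3 (0.0501 to 0.081) and for BHLHE40 without knockdown replicate 1 (0.0549). The short-term calls were lost for FN1 without nontarget replicate 1 or 2 or knockdown replicate 1 (0.0506 to 0.0705) and for ZEB2 without any library other than knockdown replicate 3 (0.08 to 0.215), without a filter (0.0679), in a fit of the 2 groups (0.0521) and with DESeq2 (0.0747).

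These target genes also answer to other signals, and their SMAD dependence in these cells was not measured.

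Of 6 tested BMP targets beyond the ID genes, none passed after short-term and 5 after long-term knockdown, 2 of them higher (10.3% and 29.5% of all genes tested passed). RUNX2, a transcription factor of bone formation, rose from 7.24, 8.05 and 8.54 to 32.6, 36.7 and 38.5 CPM (log2FC 2.13, SE 0.156, adjusted p = 2.32e-08 in edgeR) and HES1, a transcription factor also induced by Notch, rose to a lesser degree (log2FC 0.84, SE 0.167, adjusted p = 9.22e-04 in edgeR). ATOH8 fell from 3.48, 5.88 and 7.37 to 0.231, 0.587 and 0.509 CPM (log2FC −3.05, SE 0.355, adjusted p = 4.42e-06 in edgeR), and GATA3 had 48 and 12 counts in the long-term groups (log2FC −1.57, SE 0.314, adjusted p = 9.77e-04 in edgeR). MSX1, named after its value was seen, was the other that fell (log2FC −0.75, SE 0.195, adjusted p = 0.00721 in edgeR). Of 22 tested SMAD partners, ligases and phosphatases, 16 did not pass after long-term knockdown, and the 6 that did had log2 fold changes between −0.47 and 0.42. The ubiquitin ligase RNF111, which degrades SMAD7 and the SKI proteins, was lower after short-term (log2FC −0.53, SE 0.138, adjusted p = 0.0207 in edgeR) and long-term knockdown (log2FC −0.47, SE 0.137, adjusted p = 0.0143 in edgeR). TGIF2 (0.42, adjusted p in edgeR = 0.021), UCHL5 (0.39, 0.0251) and LEMD3 (−0.38, 0.0362) changed after long-term knockdown, and TGFBRAP1 after short-term knockdown (0.43, 0.0147, neighbour median 0.20). These calls were lost for RNF111 without replicate 1 or 2 of either short-term group (adjusted p 0.0549 to 0.095), and without long-term nontarget replicate 1 or long-term knockdown replicate 1 or 3 (0.0546 to 0.0671). They were lost for TGIF2 without long-term nontarget replicate 2 or long-term knockdown replicate 2 or 3 (0.0523 to 0.102), for UCHL5 without long-term nontarget replicate 2 or 3 or long-term knockdown replicate 1 or 2 (0.0621 to 0.135) and in a fit of these 2 groups (0.0672), for LEMD3 without replicate 1 or 3 of either long-term group (0.0697 to 0.0977), and for TGFBRAP1 without short-term nontarget replicate 2 or 3 or short-term knockdown replicate 2 (0.0517 to 0.0797).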

How the data were processed

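PolyA RNA of HK2 cells was sequenced in 4 groups of 3 libraries. Per the study's methods, the authors trimmed reads with fastp, aligned them with STAR (GRCh38 per the submitters' processing notes) and counted reads per gene with featureCounts; the annotation release and strand setting are not given in the sources used here. The deposited values used were raw counts per Ensembl gene ID. The deposited normalized columns are the authors' score, a count divided by a size factor, and served only for a check (largest difference 0.5). Symbols came from GENCODE 29, matched without the ID version, and 263 IDs, with 0.0126% of counts, had no match.

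Counts were tested with edgeR 4.0.16 in R 4.3.3 (filterByExpr, TMM, robust quasi-likelihood fit of the 4 groups over all 12 libraries), with Benjamini-Hochberg adjustment over the 13959 genes tested, which held 99.8% of counts. Fold changes use a prior count of 2, which shrinks those of low genes. SE is this shrunken log2 fold change over the root of F. For genes with few counts the SE is therefore shrunk as well and understates the uncertainty. CPM use TMM library sizes; per kb means per kilobase of merged exons. The biological coefficient of variation was 12%. In simulated counts for 13959 genes, 92% of 200 genes changed 3-fold were recovered for short-term and 89% for long-term knockdown, with 6.12% and 6.32% false calls among all calls.

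The members and lists were chosen with earlier results of these data known. Values in every library are given for members with an adjusted p below 0.05, a change of at least 1.5-fold in any comparison and a mean of at least 1 CPM in some group, and beside this rule for ID1 and ID3. Of the other pathway genes, at most 4 per role with the largest called changes are named for each knockdown comparison, beside genes of small counts that the text gives as named after their values were seen. Alternatives were RLE factors, DESeq2 1.42.0, other filters (none, or a mean of at least 10 CPM), a replicate block, only the groups compared, each library left out, and a fold limit (2.5 for knockdown and interaction, 2 for ageing).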

Additional observations from a re-analysis of the deposited data

Results flagged for a closer look

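For 13 members the effect of knockdown differed between short-term and long-term cells by the test of the interaction itself (edgeR adjusted p below 0.05), or 30.2% of the 43 tested, against 13.4% of all genes tested. The members were chosen with earlier results of these data known. The long-term minus the short-term log2 fold change was positive for INHBE (2.34), TGFB1 (1.23), TGFBI (1.15) and INHBA (0.86). It was negative for BAMBI (−2.96), TGFBR3 (−2.65), BMP4 (−2.17), ID2 (−1.77), BMP2 (−1.65), GREM1 (−1.20), ENG (−1.10), LTBP2 (−0.90) and TGFB2 (−0.67). For BAMBI and ENG the call in the short-term cells had no counterpart in the long-term cells, while GREM1 fell at both times.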

How the results depend on the processing

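No call of a single member turned its direction under any setting run. RLE factors kept all 66 member calls, and DESeq2 lost 5 of them, no filter 3 and a fit of only the groups compared 6 (this fit was not run for the interaction). Without a filter 10 members were called after short-term knockdown (6.37% of all genes). A fold limit left 2 members short-term, 6 long-term, 1 for ageing in nontarget cells, 10 for ageing in knockdown cells and 6 for the interaction, and 1 short-term and 21 long-term calls among the other pathway genes (of all genes 1.6% short-term, 5.87% long-term, 2.74% and 8.28% for ageing and 5.14% for the interaction). With each library left out in turn, members called ranged from 5 to 6 short-term, 12 to 18 long-term, 3 to 6 for ageing in nontarget cells (3 without short-term nontarget replicate 1, 4 without long-term nontarget replicate 1 or 2), 19 to 22 for ageing in knockdown cells and 13 to 15 for the interaction, and other pathway genes from 12 to 19 short-term (12 to 13 without short-term nontarget replicate 1 or 2 or short-term knockdown replicate 1) and 42 to 44 long-term.

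The labels number replicates 1 to 3 in each group without saying that a number marks a shared batch. Deviations from the group means correlated between −0.101 and 0.467 for same-numbered libraries, over 0.1 in 10 of 18 pairs, and 10 of 12 libraries were closest to their own number, as a hint from the data and not the design. With a replicate block 13 members were called short-term, 21 long-term, 10 and 26 for ageing in nontarget and knockdown cells and 19 for the interaction, and no member call was lost (of all genes 16.9%, 36.8%, 12.8%, 34.4% and 20.6% were called). With 3 libraries a group, SE differ between members, and few counts (SMAD9, LTBP1) as well as spread between libraries (ID3) went with wide ones.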

Other observations

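Replicate 3 was above the mean of the other replicates for 33 of the 43 tested members in the nontarget and 28 in the knockdown group of the short-term cells, and for 28 and 24 in those of the long-term cells, with median log2 differences of 0.13, 0.25, 0.09 and 0.08 in that order. The same count was not made over all genes tested, so it cannot be called particular to the members.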
